A study of Mus musculus with 2 samples.

Results

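The serum amyloid A genes Saa1, Saa2 and Saa3 and the complement genes C3, C4b, Cfb, Serping1, C1ra and C1s1 were described in 2 RNA sequencing libraries made from Lgr5-positive stem cells that had been sorted from mouse intestine. These 9 genes were found by symbol among the 17840 genes of the deposited tables, and all 9 were present in both. One library came from Srcap+/+; Lgr5-Cre+ mice (wild type) and 1 from tamoxifen-treated Srcap flox/flox; Lgr5-Cre+ mice (Srcap knockout). The protein SRCAP is an ATPase that places the histone variant H2A.Z into nucleosomes. Both libraries thus carried the Cre driven by Lgr5, a gene of stem cells at the crypt base, and their cells were sorted on GFP intensity without culture. The labels used here give neither the age of the mice nor the number behind each library, and they can be read either way on whether the wild-type mice received tamoxifen. With 1 library per genotype there is no test between genotypes, and every difference below is one between 2 libraries.

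Serum amyloid A proteins are small apolipoproteins of the acute phase response, which cytokines such as interleukin 1 and interleukin 6 switch on. In mice, Saa1 and Saa2 are made by hepatocytes and by intestinal epithelium, whereas Saa3 is made mainly outside the liver, by macrophages and adipocytes among other cells. Complement is a cascade of plasma proteins: C1q binds a target, the proteases C1r and C1s then cleave C4 and C2, and C3 is cleaved by the enzymes built from these pieces or, in the alternative pathway, from factor B. Most complement proteins in blood come from the liver, but fibroblasts, macrophages and epithelial cells make several of them locally.

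The members were chosen with their levels in these libraries known, so their differences are given as a description and support nothing further. Levels are FPKM, which counts fragments per kilobase of a transcript and scales them to the total mapped, so levels of different genes are compared per length. Where 2 levels of a gene are given, the wild-type level comes first. A log2 ratio is that of the knockout to the wild-type level after adding 1 FPKM to each. A gene is called higher or lower when this ratio is at least 2-fold and the larger level is at least 1 FPKM. Folds printed for single genes are ratios of the levels themselves. Steps between low values gave about 16900000 reads assigned to genes for wild type and 17100000 for knockout, from which approximate read numbers and 95% Poisson intervals were derived. These cover counting error only and not the spread between mice.

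Of the 9 genes, 7 were higher in the knockout library, 0 were lower, and 2 (Saa1 and Saa2) met neither rule. Over the 11784 genes that reached 1 FPKM in at least 1 library, called genes tested below, 2.61% were called higher and 0.416% lower. Saa2 stayed under that level in both libraries, so 8 of the 9 were among those genes. Of these 8, Saa3 entered only through the knockout library, which fixed its direction. The median log2 ratio of the 9 genes was 2.77, beside 0.02 over all genes tested, whose middle 95% ran from -0.48 to 1.02. The summed level of the 9 genes was 75.5 and 811 FPKM, which is 0.0112% and 0.128% of the total. In such bulk samples, more cells of a type and more RNA per cell cannot be told apart.

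**Figure D1:**
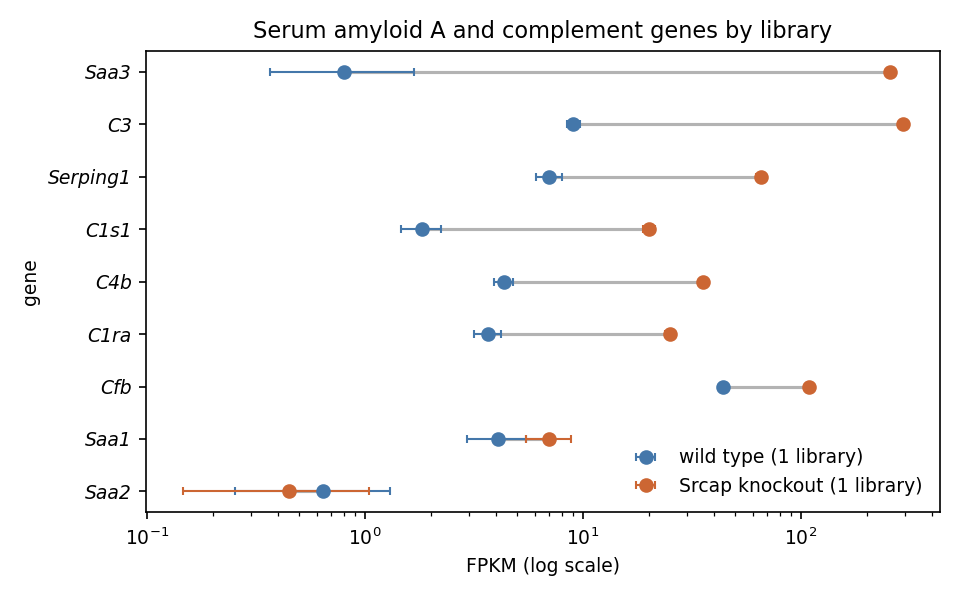
Level of each of the 9 genes in the wild-type (blue) and Srcap knockout (orange) library, in FPKM on a log axis, 1 library per point. Bars are approximate 95% intervals of counting error, which overlap for Saa1 and Saa2 and lie apart for the other 7 genes.

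The order of the levels differed between the libraries. In the wild-type library factor B (Cfb) was the most abundant at 44.1 FPKM and made up 58.4% of the summed level of the 9 genes, followed by C3, Serping1, C4b, Saa1, C1ra, C1s1, Saa3 and Saa2. Within that order the counting intervals of C4b, Saa1 and C1ra overlapped, as did those of Saa3 with its neighbours C1s1 and Saa2. In the knockout library C3 came first and Saa3 second, and the pair made up 67.7% of the summed level against 13.0% in the wild-type library. Cfb then held 13.4%. There the intervals of neighbouring genes were separate.

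The 3 serum amyloid A genes lie next to each other on mouse chromosome 7 (GRCm38.p6, which is mm10) within 42.3 kb, with Saa4 between Saa3 and Saa1. Saa3 spans 46711998 to 46719615, Saa1 spans 46740497 to 46743181 and Saa2 spans 46751833 to 46754313. The 250 bases before the RefSeq transcription start are shown for these genes and for C3, because the Saa genes lie side by side and Saa3 and C3 had the highest ratios of the 9. Capitals mark matches to the C/EBP motif TTNNGNAA on either strand, a motif of factors that act on acute phase genes. Each is written 5′ to 3′ on the gene's strand. The start used lies 3939 bases inside the printed end of the gene for Saa3 and 201 bases inside it for Saa1, so other starts of these genes are not covered.
Saa1 (chr7:46742981-46743230, minus strand): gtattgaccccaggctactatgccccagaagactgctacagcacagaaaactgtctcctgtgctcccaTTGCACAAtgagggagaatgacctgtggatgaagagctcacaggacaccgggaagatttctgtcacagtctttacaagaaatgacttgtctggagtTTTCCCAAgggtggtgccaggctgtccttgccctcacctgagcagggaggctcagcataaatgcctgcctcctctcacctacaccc
Saa2 (chr7:46751583-46751832, plus strand): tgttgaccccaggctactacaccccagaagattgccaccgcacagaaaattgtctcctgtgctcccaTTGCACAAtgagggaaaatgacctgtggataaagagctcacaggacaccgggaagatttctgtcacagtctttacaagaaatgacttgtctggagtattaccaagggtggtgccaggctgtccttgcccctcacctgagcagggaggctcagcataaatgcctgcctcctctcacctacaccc
Saa3 (chr7:46715677-46715926, minus strand): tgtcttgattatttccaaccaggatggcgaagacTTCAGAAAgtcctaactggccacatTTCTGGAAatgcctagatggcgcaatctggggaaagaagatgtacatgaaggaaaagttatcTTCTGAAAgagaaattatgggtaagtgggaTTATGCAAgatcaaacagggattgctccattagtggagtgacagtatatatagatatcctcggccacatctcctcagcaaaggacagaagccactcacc
C3 (chr17:57228137-57228386, minus strand): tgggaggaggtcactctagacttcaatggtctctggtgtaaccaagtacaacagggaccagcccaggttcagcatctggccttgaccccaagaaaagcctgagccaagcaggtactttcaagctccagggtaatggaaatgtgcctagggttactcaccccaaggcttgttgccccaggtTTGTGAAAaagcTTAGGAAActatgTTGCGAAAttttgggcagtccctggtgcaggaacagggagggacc

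The Saa1 and Saa2 stretches were 95.6% identical over aligned bases, whereas Saa1 and Saa3 were 59.4% identical. The C/EBP motif had 2 matches before Saa1, 1 before Saa2, 4 before Saa3 and 3 before C3. RefSeq start sites were matched for 6 of the 9 genes, and each of the 6, C1ra and C1s1 included, held a match, as did 36.8% of all 32851 promoters of the same length. The STAT motif TTCNNNGAA, found in 7.02% of promoters, and the NF-κB consensus, found in 7.25%, had no match in these windows on either strand. Such matches describe letters only and are not evidence of binding.

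Saa3, the acute phase serum amyloid A made mainly outside the liver, was at 0.80 FPKM in wild-type and 256 FPKM in knockout cells. These levels correspond to about 8 and 2431 reads. Its log2 ratio of 7.16 (counting error 0.24) was first among all 11784 genes tested. Saa3 was under 1 FPKM in wild-type cells and was among these genes only through the knockout library, which fixed its direction. The fold of 320.3 between its levels has a denominator of few reads, with a wild-type interval from 0.367 to 1.68 FPKM.

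Saa1, which encodes an acute phase apolipoprotein carried on high-density lipoprotein, was at 4.06 and 7.02 FPKM, or about 42 and 73 reads. Its log2 ratio was 0.66 (counting error 0.23), under the 2-fold rule, and the counting intervals of both levels met at 5.50 FPKM. Saa2, its near copy, was at 0.64 and 0.45 FPKM, only about 7 and 5 reads, and no difference was detectable at this depth. Saa4, a constitutive family member that lies between Saa3 and Saa1, was at 0.13 and 0.10 FPKM. Saa3 accounted for 14.2% of the summed level of the 4 Saa genes in wild-type and 97.1% in knockout cells.

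Transcripts of Saa1 and Saa2 were 94.4% identical over aligned bases, but of the 50-base windows of Saa1, the length of the reads, 9.11% occurred unchanged in Saa2. Saa1 shared 1.61% of its windows with Saa3. Reads from such windows could have come from either gene. The levels of Saa1 and Saa2 are therefore less certain than their read numbers imply, while little of Saa3 can be shared with them. In knockout cells, however, Saa3 had about 2431 reads against about 73 for Saa1. A small share of Saa3 reads could thus weigh on the Saa1 level there, and its part in the Saa1 difference was not tested.

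The members classed as epithelial, Saa1 and Saa2, had log2 ratios of 0.66 and -0.18, with a median of 0.24. Those classed as stromal or mesothelial, Saa3, C3 and Serping1, had ratios of 7.16, 4.87 and 3.05, with a median of 4.87. The epithelial median minus the stromal median was -4.63. The classes do not overlap, but they were set with these values known, and Saa2 adds little because of its few reads. The 4 genes in neither class, C4b, Cfb, C1ra and C1s1, lay between, with a median of 2.63.

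The initiating part of the classical pathway was higher in the knockout library. C1ra (chromosome 6, 124512621 to 124523440), which encodes a protease of the C1 complex, was at 3.67 and 25.1 FPKM, or 6.83-fold higher. Its log2 ratio was 2.48 (counting error 0.09). C1s1 (chromosome 6, 124530344 to 124542392), which encodes the protease that C1r activates, was at 1.82 and 20.1 FPKM. It was 11.0-fold higher, with a log2 ratio of 2.90 (counting error 0.11). The level of C1s1 relative to C1ra was 0.496 in wild-type and 0.801 in knockout cells.

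C4b, the substrate of C1s, lies in the major histocompatibility complex on chromosome 17 (34728139 to 34743902). It was at 4.33 and 35.5 FPKM, an 8.19-fold difference with a log2 ratio of 2.77 (counting error 0.06). C2, the other component cleaved by C1s and no member, was at 5.99 and 21.7 FPKM, or 3.62-fold higher. The 3 genes of C1q, the recognition subunit, were 2.44-fold to 2.55-fold higher, with C1qa at 33.5 and 85.3 FPKM. They are also macrophage markers.

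The copies C1rb, C1s2 and C4a stayed at or below 0.08 FPKM in both libraries. Of 50-base windows, 48.0% of C1ra occur in C1rb, 24.3% of C1s1 in C1s2 and 35.2% of C4b in C4a. RSEM, which the submitters' processing notes name without a role, can divide such reads between copies, and a part of each member's level can rest on such a division.

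C3, the central component on which all pathways converge, lies on chromosome 17 from 57203967 to 57228136. It was at 9.04 and 293 FPKM, or about 787 and 25691 reads. The level was 32.4-fold higher and the log2 ratio of 4.87 (counting error 0.05) had rank 3 among all genes tested. Cfb (chromosome 17, 34856374 to 34862514), which forms the alternative pathway C3 convertase with C3b, was at 44.1 and 109 FPKM. Its difference of 2.47-fold, a log2 ratio of 1.29 (counting error 0.04), was the smallest among the 7 called members. The level of C3 relative to Cfb was 0.205 in wild-type and 2.69 in knockout cells. Properdin (Cfp), which stabilises that convertase, was at 3.47 and 7.29 FPKM, short of the 2-fold rule with a log2 ratio of 0.89. Factor D (Cfd), the protease that cleaves factor B, was listed at 0 and 0.19 FPKM.

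Serping1 (chromosome 2, 84765360 to 84775444) encodes the C1 inhibitor, which inactivates C1r and C1s. It was at 7.0 and 65.4 FPKM, or about 210 and 1975 reads. It was 9.34-fold higher, with a log2 ratio of 3.05 (counting error 0.09). Its level was 3.85 times that of C1s1 in wild-type and 3.26 times in knockout cells.

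Across 51 complement genes considered, 47 were in the tables and 28 reached 1 FPKM in either library. Of these, 13 were higher and 0 lower, with a median log2 ratio of 0.89. Without the members, 7 of 22 were higher and the median was 0.69, beside the 2.61% of all genes called higher. Of these 22, C6, C7, C3ar1 and C5ar1 were under 1 FPKM in wild-type cells. These 4 entered only through the knockout library, which fixed their direction, and C6 was called higher. All 7 classical pathway genes tested were higher, but 3 of them are members and 3 are the C1q genes, leaving C2. No lectin pathway recognition gene reached 1 FPKM. Fcna was at 0.77 and 0.66 FPKM, Mbl2 and Colec11 stayed at or below 0.28 FPKM, and Masp1 was listed at 0 and 0.06 FPKM.

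The regulators did not share a direction. Besides Serping1, the inhibitor gene Clu (2.42 and 20.6 FPKM) was higher, as was Cd55, a membrane regulator, at 3.0 and 7.03 FPKM, just past 2-fold. Of the other 6 tested regulators, 5 had negative log2 ratios short of 2-fold. Among these, Cd55b (1.22 and 0.38 FPKM) and Cd59a were 3.21-fold and 2.47-fold lower by level, folds that the pseudocount shrinks below 2-fold. Cd59a, a membrane inhibitor of the terminal complex, was at 2.54 and 1.03 FPKM, and Cfi, which cleaves C3b, at 4.48 and 2.52 FPKM. Cr1l (Crry), a membrane regulator of C3 convertases in rodents, was at 44.3 and 47.4 FPKM.

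Terminal components, which form the membrane attack complex, were scarce in both libraries. C6 was the only one called higher, at 0.47 and 2.13 FPKM, while C7 was at 0.60 and 1.37 FPKM. C8g was at 2.39 and 1.63 FPKM. C8b was listed at 0 in both libraries and Hc, the gene of C5, at 0 and 0.03 FPKM. Receptors had 0 of 6 calls, with log2 ratios from 0.52 for Itgax to 0.88 for Itgb2. The anaphylatoxin receptor genes C3ar1 (0.72 and 1.97 FPKM) and C5ar1 (0.79 and 2.07 FPKM) were low in both.

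**Figure D2:**
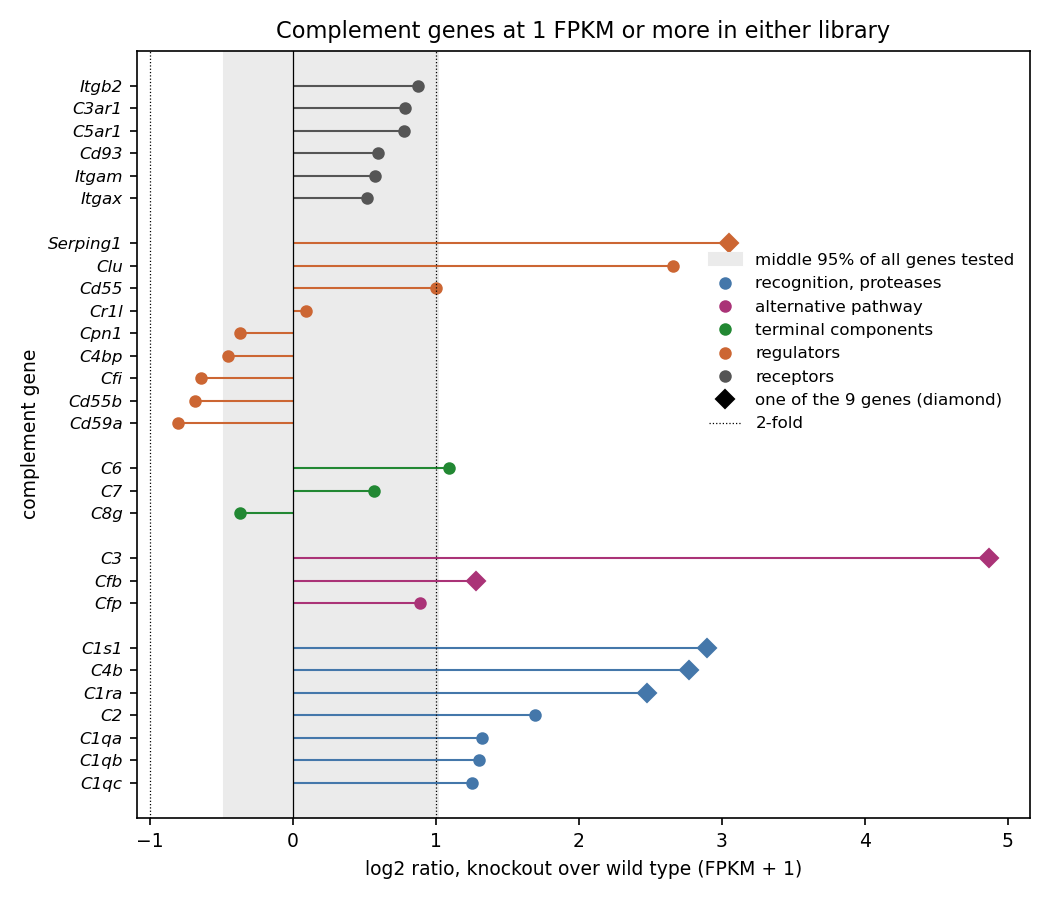
Log2 ratio of knockout to wild-type level (FPKM + 1) for 28 complement genes tested, grouped by role, where diamonds are members and the grey band is the middle 95% of all genes tested. C3 reaches 4.87, all 7 recognition and protease genes lie past 2-fold, and the regulators lie on both sides of 0.

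Other acute phase genes were higher in part. Of 27 such genes with values, 15 reached 1 FPKM, and 8 of these were higher and 0 lower, with a median log2 ratio of 1.11. Over all genes tested, 2.61% were called higher and 0.416% lower. Of the 15, 5 were under 1 FPKM in wild-type cells, and most of these 5 were called higher, Chil1 and Hp among them. These 5 entered only through the knockout library, which fixed their direction. The chitinase-like Chil1 was at 0.26 and 17.9 FPKM, the protease inhibitor Slpi at 15.3 and 156 FPKM, and Serpina3n, another protease inhibitor, at 1.45 and 9.25 FPKM. Haptoglobin (Hp), which binds free haemoglobin, was at 0.04 and 3.09 FPKM. Receptors of serum amyloid A had 0 of 5 calls, with Cd36 the most different at 0.76 and 1.46 FPKM.

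Of genes that act upstream of the acute phase, few passed the 2-fold rule. Of 18 tested cytokines and cytokine receptors, 1 was higher, Il1b at 3.65 and 10.8 FPKM, and the median log2 ratio was 0.25. Il11 was at 0.91 and 2.68 FPKM and Osm at 0.29 and 1.11 FPKM, folds of 2.95 and 3.83 that the pseudocount shrinks below 2-fold. Both are among 4 of the 18 genes that were under 1 FPKM in wild-type cells and entered only through the knockout library. Il6st, the shared receptor subunit of the interleukin 6 family, was at 4.67 and 9.08 FPKM. Of 18 tested transcription factors and regulators of acute phase genes, 0 reached 2-fold and the median was 0.09. Nfkbia, an inhibitor and target of NF-κB, was at 142 and 202 FPKM, and Socs3, a target of STAT3, at 23.6 and 33.6 FPKM.

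Most genes around the members did not pass the 2-fold rule. Among the members' neighbours, named for their position after their values were seen, 23 reached 1 FPKM. Of these, 2 were higher and 0 lower, beside 2.61% and 0.416% over all genes tested. In the Saa cluster the flanking genes Saal1 (7.01 and 6.06 FPKM) and Hps5 (5.43 and 6.76 FPKM) lay within 2-fold, 1.31 and 6.15 kb from the outer Saa genes. On chromosome 17, C4b and Cfb are separated by Stk19, Dxo, Skiv2l and Nelfe, with log2 ratios from -0.12 to 0.16. The pair called higher were C2, which lies 0.088 kb from Cfb, and the extracellular matrix gene Tnxb beside C4b, at 0.61 and 3.17 FPKM. Tnxb thus entered only through the knockout library, which fixed its direction. C1ra and C1s1 lie within 29.8 kb, and C1rl, which lies 1.98 kb from C1ra, was at 0.75 and 0.83 FPKM. Around C3, 4 tested genes had log2 ratios from -0.76 for Tubb4a (2.87 and 1.28 FPKM) to 0.23 for Trip10. Around Serping1, 4 had ratios from -0.10 to 0.67, the highest for its nearest, Ube2l6, at 23.8 and 38.3 FPKM.

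**Figure D3:**
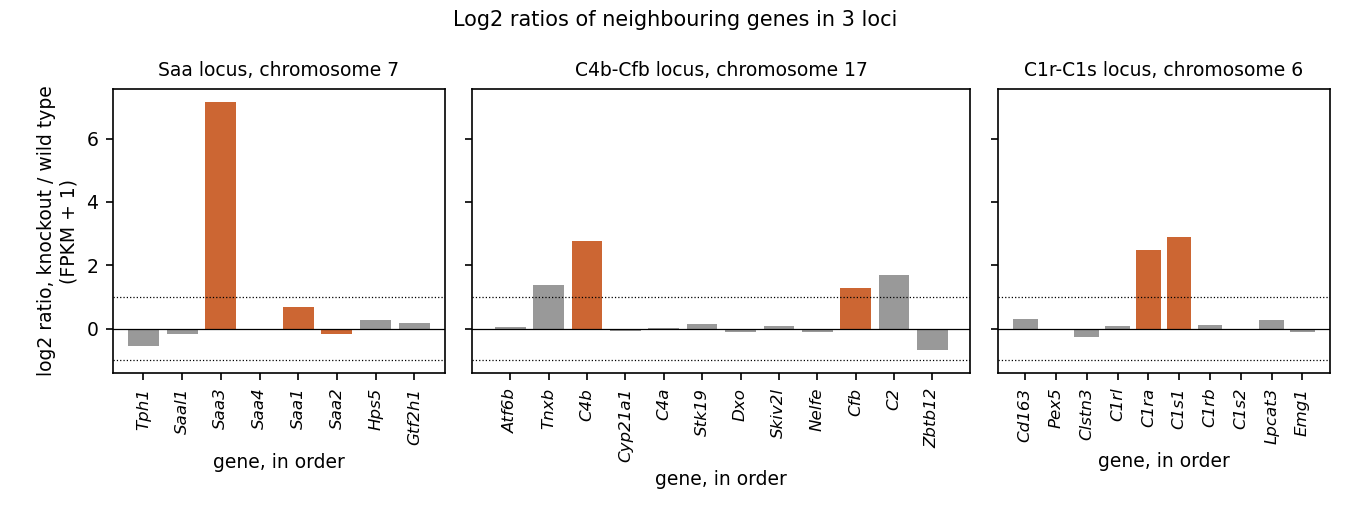
Log2 ratio of knockout to wild-type level (FPKM + 1) of genes in chromosome order at the Saa, C4b-Cfb and C1r-C1s loci, with members in orange, other genes in grey and dotted lines at 2-fold. Saa3 stands at 7.16 beside Saal1 at -0.18, and the genes between C4b and Cfb lie near 0.

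Markers of mesothelium, fibroblasts, macrophages and endothelium were in part higher in the knockout library beside the members, and their part in these differences was not tested. Mesothelial markers had 7 of 7 tested genes higher, and their summed level was 4.51 and 80.4 FPKM, a 17.8-fold difference. Of these 7, 5 were under 1 FPKM in wild-type cells and entered only through the knockout library, which fixed their direction. Upk3b was at 1.27 and 26.1 FPKM and Msln at 0.92 and 19.2 FPKM. Fibroblast markers had 6 of 8 higher and sums of 29.9 and 205 FPKM, or 6.85-fold, with Col1a2 at 2.74 and 31.1 FPKM. Macrophage markers had 8 of 11 higher and sums of 192 and 427 FPKM, or 2.23-fold, and endothelial markers 3 of 6 with sums of 6.96 and 19.1 FPKM. Of those 6 endothelial genes, 5 were likewise under 1 FPKM in wild-type cells, the called genes Cldn5, Tie1 and Emcn among them. No listed marker of these 4 cell types was at 0 in either library.

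Markers of 4 further cell types had no gene called by the 2-fold rule, on the scale with the pseudocount. Neutrophil markers had 0 of 4 called, all 4 with positive log2 ratios, and sums of 10.5 and 17.6 FPKM. Of these 4, S100a8 and Csf3r were under 1 FPKM in wild-type cells and entered only through the knockout library. S100a8 was at 0.15 and 1.27 FPKM and Csf3r at 0.77 and 1.77 FPKM, while Mpo, Elane and Ngp were at 0 in both libraries. Hepatocyte markers had 0 of 3 higher and sums of 9.43 and 8.17 FPKM, and adipocyte markers were at 0.73 and 1.38 FPKM in sum. Cidec, the 1 adipocyte marker tested, was at 0.59 and 1.35 FPKM and likewise entered only through the knockout library. Lep and Retn were at 0 in both libraries. Smooth muscle markers had 0 of 4 higher, all 4 with positive log2 ratios, and sums of 6.73 and 11.3 FPKM. Among them, Actg2 and Des were under 1 FPKM in wild-type cells and entered only through the knockout library.

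Epithelial markers also differed between the libraries. Pan-epithelial markers had sums of 5505 and 7186 FPKM with 0 of 6 called. Enterocyte markers had 4 of 9 higher, with sums of 298 and 610 FPKM, and goblet cell markers 1 of 7, with sums of 5336 and 7712 FPKM. Stem cell markers had 3 of 7 lower, with Lgr5 itself at 5.9 and 2.17 FPKM, while Paneth cell markers were abundant in both libraries, with sums of 33829 and 19163 FPKM and 0 of 7 called. Transcripts of several other cell types were thus present in the samples labelled as stem cells. Srcap was at 20.4 and 11.3 FPKM, so its level in the knockout library was 55.7% of that in the wild-type library. These are levels of the whole gene, and they do not show how much of this RNA was intact.

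**Figure D4:**
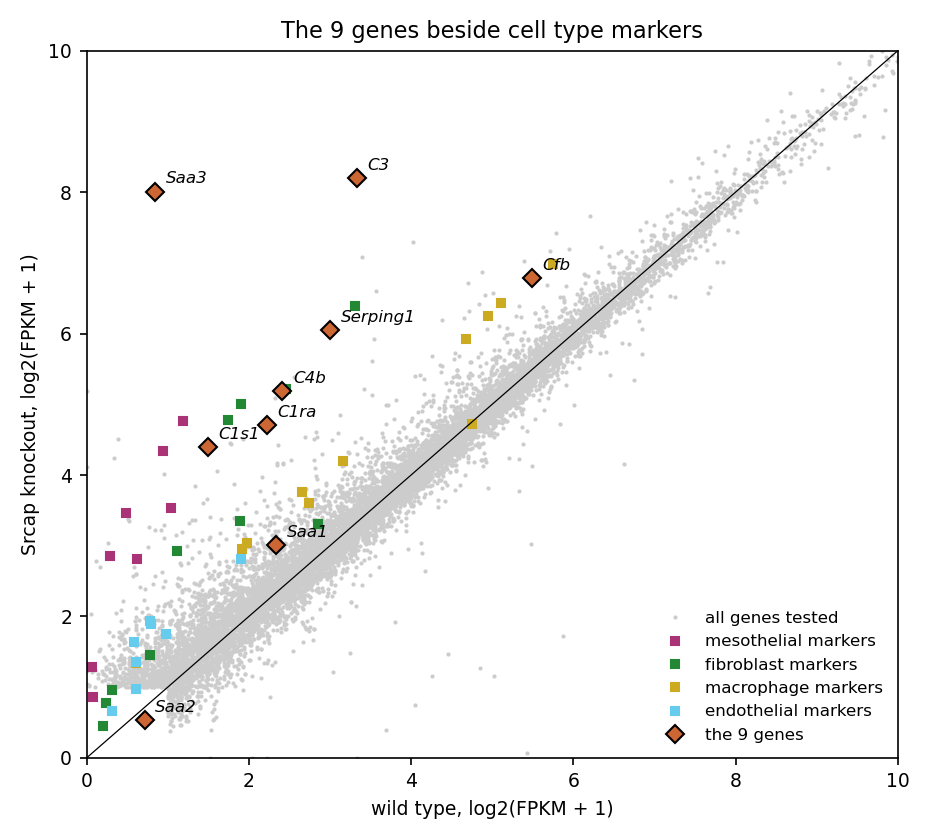
Levels in the knockout against the wild-type library, both as log2(FPKM + 1), for all genes tested (grey, axes ending at 10), markers of 4 cell types (squares) and the 9 genes (diamonds); the line marks equal levels. C4b, C1ra, C1s1 and Serping1 lie near fibroblast markers such as Dcn, Col1a1 and Col3a1. C1s1 lies about as near to the mesothelial markers Upk3b and Msln. Saa3 and C3 lie farther from the line than the markers drawn.

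The genes nearest to 5 of the members by their levels in both libraries were found by the straight-line distance between log2(FPKM + 1) values, over 2 libraries only. Nearest to Serping1 were Dcn (8.94 and 82.8 FPKM), Igfbp7 (10.7 and 59.7 FPKM) and Sparc (10.4 and 47.8 FPKM), at distances from 0.46 to 0.68. Nearest to C3 were Rarres2 (9.56 and 135 FPKM), Slpi and Tmem254b, at 1.11 to 1.62. No gene lay close to Saa3, for which Rarres2, Ccl21a and Dcn were nearest at 2.71 to 2.95. Saa1 had Was, Icam1 and Bace2 within 0.05, and Saa2, in the dense region of low levels, Ppp1r14c and Grp within 0.01.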

How the data were processed

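The authors deposited FPKM values, 2 decimals each, in a separate table for either library, per the file headers. The submitters' processing notes name HISAT, Bowtie2 and RSEM, without versions, and mm10 as the build. Reads were single-end, of 50 bp, on average 59000000 per sample, per the labels' protocols. Annotation, transcript lengths and strand setting are not stated in the labels.

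Tables were joined on gene identifier. Log2 ratios used a pseudocount of 1 FPKM, so ratios of genes near or under that level are too small. Depth was estimated from FPKM multiplied by transcript length in genes under 900 nucleotides with 1 GENCODE M21 transcript. One read was worth 0.059 FPKM kb in wild-type and 0.0585 in knockout cells. At these steps, 71.7% and 71.3% of values fell within 0.2 of whole reads, where evenly spread values would give 40% at a step fixed beforehand. The steps were chosen as those with the largest such shares, so the shares are no test of them. The implied number of assigned reads is far below the stated reads per sample. Steps were searched only within a set range, which could not return a number as high as the stated reads. How much of the gap comes from that limit is not known, so read numbers, counting errors and intervals are rough. Counting intervals used the longest principal transcript and are approximate. Coordinates and start sites came from RefSeq (GRCm38.p6). Calculations used Python 3.11.15, pandas 2.3.3, numpy 2.4.6, scipy 1.17.1 and Biopython 1.88. The calling rule was tested on simulated data, with planted changes larger than 2-fold in genes well above 1 FPKM. That test does not cover genes near 1 FPKM or the spread between mice.

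The members and all gene lists were chosen with earlier results of these data known. Named genes are the members, complement genes, up to 4 genes per other list with the largest absolute log2 ratio, Srcap, neighbours, and the 3 genes nearest in level to 5 members. Genes without a row in the tables were not analysed here, and a few genes that these rules name are not reported here and were left out of the counts over lists.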

Additional observations from a re-analysis of the deposited data

How the results depend on the processing

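The number of members called higher was 7 as reported and under pseudocounts of 0.1 and 5 FPKM, without the filter on low values, with a minimum of 10 FPKM and under all 3 rescalings. Under a 3-fold rule it was 6, without Cfb. No member was lower under any of these settings. Dropping the filter could not change a call, because a 2-fold ratio with a pseudocount of 1 FPKM already needs a level of 1 FPKM. The minimum of 10 FPKM could not remove any of the 7, which all lay above it in the knockout library. The median log2 ratio of the members was 3.01 with a pseudocount of 0.1 FPKM and 1.88 with 5 FPKM, since a larger pseudocount shrinks every ratio. Over all settings the log2 ratio of Saa3 ranged from 5.49 to 8.15, of C3 from 4.41 upwards, of C1s1 from 1.88 to 3.39, of Serping1 from 2.55 to 3.20, of C4b from 2.12 to 3.01 and of C1ra from 1.79 to 2.74. Cfb ranged from 1.21 to 1.37, Saa1 from 0.41 to 0.78 and Saa2 from -0.43 to -0.05. Over the whole table, 308 genes were higher and 49 lower. With a pseudocount of 0.1 FPKM these were 656 and 110 genes, and with 5 FPKM 108 and 23. A minimum of 10 FPKM gave 121 and 30 genes, and a 3-fold rule 99 and 16. No paired analysis was possible because each genotype has 1 library. Depth limits Saa2 and the wild-type level of Saa3, which rest on about 7 reads and 8 reads in wild-type cells.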

Other observations

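Several further acute phase genes, chosen after their values were seen, did not pass the 2-fold rule. Pigr, the receptor that carries immunoglobulin A across the epithelium, was at 1050 FPKM in wild-type and 1039 FPKM in knockout cells. The endotoxin co-receptor gene Cd14, also a macrophage marker, was at 25.8 and 25.4 FPKM. The metallothionein genes Mt1 and Mt2 were at 292 and 419 FPKM and at 69.1 and 114 FPKM, with log2 ratios of 0.52 and 0.71. Lcn2, which binds bacterial siderophores, was called higher at 1.62 and 6.55 FPKM, with a summed neutrophil marker level of 10.5 and 17.6 FPKM beside it, whose part in that difference was not tested.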
